A study of Mus musculus with 25 samples.

Results

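The Kazal-type serine protease inhibitor genes Spink2, Spink5, Spink8, Spink10, Spink11, Spink12 and Spink14 were followed in RNA of mouse spermatozoa. They were chosen by gene symbol, as Spink2, known from testis, and members taken as epididymal, and they make up 7 of the 13 Spink symbols and 7 of the 24358 genes in the table. Pregnant C57BL/6J or FVB/N females were given 300 mg/kg/day of the plasticizer di(2-ethylhexyl) phthalate (DEHP) by mouth on embryonic days 9 to 19, or the corn oil vehicle alone. Sperm that swam out of the cauda epididymis of male descendants aged 14 weeks were sequenced. The groups were vehicle C57BL/6J sons (C57.CTL.F1), DEHP C57BL/6J sons (C57.D300.F1), C57BL/6J grandsons obtained from exposed F1 males and unexposed females (C57.D300.F2), vehicle FVB/N sons (FVB.CTL.F1) and DEHP FVB/N sons (FVB.D300.F1).

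The table gave 1 estimated count per gene and condition, combined from 5 libraries, so that no spread between libraries could be computed and no difference could be tested. The error given with each count is the SD under the model of Cuffdiff, the program that made the table, and a difference is called within or beyond the model SD of that difference. The 10 libraries of vehicle C57BL/6J sons and exposed C57BL/6J sons were reused from earlier work and the other 15 were new. A difference between these sets cannot be told apart from strain or generation wherever a comparison crosses them, and no F2 vehicle condition was analysed here. The estimated counts summed to between 6921690 and 8602900 per condition, and all 7 members had a valid estimate of at least 10 counts in every condition. In these bulk samples, fewer cells of a type and less RNA per cell cannot be told apart.

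Kazal inhibitors are small secreted proteins in which paired cysteines hold a loop that enters the active site of a serine protease and blocks it. In the male tract, proteases and their inhibitors act on the sperm surface, on the acrosome and on the seminal fluid. SPINK2 is a testicular inhibitor found in the acrosome, where it restrains the protease acrosin. SPINK5, also named LEKTI, is a chain of inhibitory domains best known from skin, where it restrains kallikreins. Spink8, Spink10, Spink11, Spink12 and Spink14 are less studied and are listed here as genes of the epididymis, the duct in which sperm mature.

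The coding stretch from the first to the last cysteine codon is shown for Spink2, whose count differed most between the FVB/N conditions relative to its vehicle level, and for Spink8, the member with the highest count. The sequences come from the GENCODE M21 annotation of GRCm38, are written 5′ to 3′ on the coding strand, and carry the 6 cysteine codons of each in capitals.
Spink2: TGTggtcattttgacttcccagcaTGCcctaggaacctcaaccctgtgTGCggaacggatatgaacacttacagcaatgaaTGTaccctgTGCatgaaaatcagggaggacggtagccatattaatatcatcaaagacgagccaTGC
Spink8: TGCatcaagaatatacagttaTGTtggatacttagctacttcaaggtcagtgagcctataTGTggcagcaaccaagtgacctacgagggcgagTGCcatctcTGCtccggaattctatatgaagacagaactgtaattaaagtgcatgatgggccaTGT
The Spink2 gene lies at chr5:77205107-77211471 on the minus strand and encodes 86 residues. The Spink8 gene lies at chr9:109812280-109826633 on the plus strand and encodes 105 residues. The last 3 gaps between cysteines were the same in both proteins, at 10, 2 and 17 residues. The first 2 gaps were 7 and 7 residues in Spink2 and 6 and 12 residues in Spink8. The Kazal cysteine pattern searched in the encoded proteins, with gaps of 7, 10 and 2 or 3 residues and a tyrosine in the longest gap, had 1 match in Spink2 and 0 in Spink8, which is named as a Kazal-type gene by its symbol.

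Spink8 had the highest count of the 7 members in every condition. Its count was 37904 (model SD 35554) in vehicle C57BL/6J sons, 33319 (model SD 21480) in exposed C57BL/6J sons, 34792 (model SD 22678) in C57BL/6J grandsons, 38020 (model SD 34028) in vehicle FVB/N sons and 29301 (model SD 19215) in exposed FVB/N sons. These levels lay within 1.30-fold of each other, and every difference was within its model SD. Spink8 ranked between 11 and 25 among all genes by count, held from 0.354 to 0.503% of all counts, and made up from 55.5 to 69.9% of the summed count of the 7 members.

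Spink5 and Spink10 followed by count and were nearly level across the study. The Spink5 count was 7186 in vehicle C57BL/6J sons, 7237 in exposed C57BL/6J sons, 6450 in C57BL/6J grandsons, 6640 in vehicle FVB/N sons and 7641 in exposed FVB/N sons, with model SDs from 2441 to 4202. The Spink10 count was 7826, 9196, 8543, 10763 and 10748 in the same order, with model SDs from 3388 to 4723. Both FVB/N conditions were the highest for Spink10, but all differences of both genes stayed within the model SD, with the highest level 1.18-fold over the lowest for Spink5 and 1.38-fold for Spink10. Spink10 overlaps Spink7 and Spink13 on the opposite strand, and the reads were aligned with a stranded setting (fr-secondstrand). The strand setting of the counting step is not given in the sources used here, so that the share of its count from these neighbours is uncertain.

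Spink14 was higher in FVB/N than in C57BL/6J sperm. Its count was 604 (model SD 155) in vehicle C57BL/6J sons, 700 (model SD 170) in exposed C57BL/6J sons and 649 (model SD 162) in C57BL/6J grandsons, against 1272 (model SD 336) in vehicle FVB/N sons and 1046 (model SD 268) in exposed FVB/N sons. Both FVB/N conditions lay above all 3 C57BL/6J conditions. The vehicle conditions differed by 2.10-fold, or 667 counts against a model SD of 370. Among the new libraries alone, the vehicle FVB/N sons exceeded the C57BL/6J grandsons by 622 counts against a model SD of 373, although these groups differ in generation and exposure as well as strain.

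Spink2, Spink11 and Spink12 were low to moderate in most conditions and highest in exposed FVB/N sons. The Spink2 count was 59.2 (model SD 17.6) in vehicle C57BL/6J sons, 75.9 (model SD 21.3) in exposed C57BL/6J sons, 60.4 (model SD 17.9) in C57BL/6J grandsons, 29.5 (model SD 10.8) in vehicle FVB/N sons and 375 (model SD 206) in exposed FVB/N sons. The Spink11 count was 537 (model SD 265), 137 (model SD 34.9), 256 (model SD 60.8), 385 (model SD 90.7) and 3244 (model SD 3104) in the same order. The Spink12 count was 85.8 (model SD 24.0), 80.4 (model SD 23.1), 80.0 (model SD 22.8), 156 (model SD 39.2) and 446 (model SD 213). Without exposed FVB/N sons the highest level was 2.57-fold over the lowest for Spink2, 3.91-fold for Spink11 and 1.96-fold for Spink12.

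**Figure D1:**
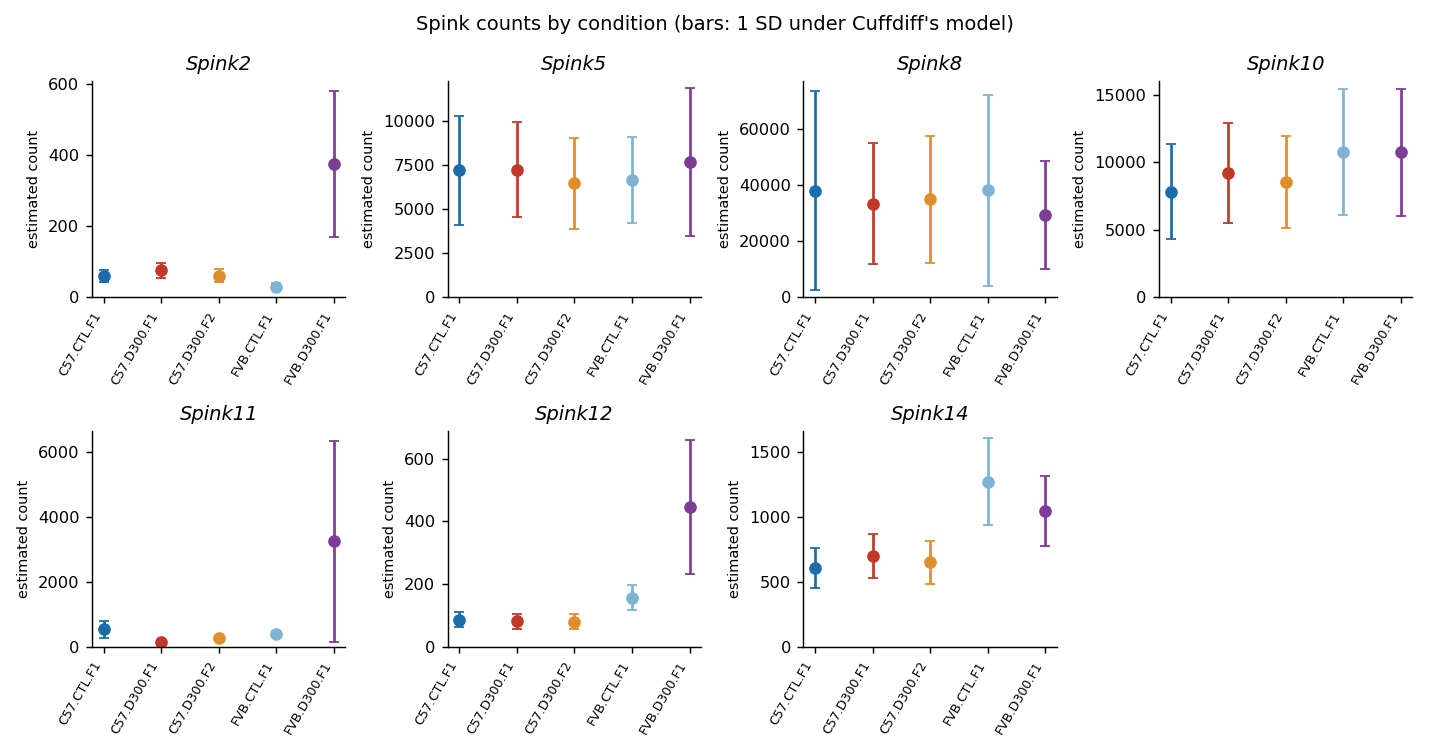
Estimated count of each Spink gene (vertical axis, linear, from 0) in the 5 conditions (horizontal axis), with bars of 1 SD under Cuffdiff's model, cut at 0. Spink2, Spink11 and Spink12 stood highest in FVB.D300.F1 with wide bars, Spink14 was higher in both FVB/N conditions, and Spink5, Spink8 and Spink10 overlapped throughout.

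Levels were compared between genes as counts per kilobase of merged exons. On this scale Spink8 was first in all 5 conditions, at 46169 in vehicle C57BL/6J sons and 35689 in exposed FVB/N sons. In vehicle C57BL/6J sons the order was then Spink5, Spink14, Spink10, Spink11, Spink12 and Spink2. In exposed FVB/N sons Spink11 moved to the second place, ahead of Spink14, Spink5, Spink10, Spink2 and Spink12. The place of Spink10 depended on the length used, because its merged exons span 8065 bases and its median coding transcript 802.5 bases: with the latter length it was second in every condition. Spink12 and Spink2 also changed places with that length in vehicle C57BL/6J sons and in C57BL/6J grandsons, where Spink12 was then last. Orders between neighbours rest on 1 value per condition and were not tested.

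On GRCm38, 5 of the 7 members lie on chromosome 18, as do 10 of the 13 Spink genes of the table. Spink5 lies at chr18:43963235-44022501, Spink14 at chr18:44027869-44032417, Spink12 at chr18:44104407-44108543 and Spink11 at chr18:44190045-44196177. Spink10 lies apart, at chr18:62548911-62668070. Spink12 and Spink11, which were both highest in exposed FVB/N sons, are thus near Spink5 and Spink14, of which Spink5 was nearly level and Spink14 was higher in both FVB/N conditions. The encoded proteins have 1017 residues in Spink5, 162 in Spink10, 114 in Spink11, 105 in Spink12 and 96 in Spink14.

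With DEHP in FVB/N, Spink2 was the 1 member that differed from vehicle both by the fold rule and beyond its model SD. The share of all genes that met both is not given here, and the shares below are for the fold rule alone. A gene was counted as changed at 2 log2 units of (count + 1), with at least 10 counts in 1 compared condition, and log2 ratios on this scale understate the difference of low genes. Spink2 and Spink11 were counted as higher in exposed FVB/N sons than in vehicle FVB/N sons and no member as lower, against 0.662% of 16471 genes higher and 0.0182% lower. The median log2 ratio of the 7 members was 0.20, beside 0.00 over all counted genes.

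Spink2, the acrosin inhibitor, was 12.7-fold higher (log2 ratio 3.62), a difference of 346 counts against a model SD of 207. Spink11 was 8.43-fold higher (log2 ratio 3.07), but the difference of 2859 counts was within its model SD of 3105. Spink12 was 2.85-fold higher (log2 ratio 1.5), short of the 2 log2 units, with a difference of 289 counts beyond its model SD of 217. The other 4 members had log2 ratios between -0.38 for Spink8 and 0.20 for Spink5, all within the model SD.

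The 3 genes with high levels in exposed FVB/N sons also had unusually wide model errors there. The coefficient of variation (CV), the model SD divided by the count, was compared with the median CV of the 200 genes of most similar count. This ratio was 2.35 for Spink2, 3.06 for Spink11 and 2.04 for Spink12 in exposed FVB/N sons, and close to 1 for all 3 in vehicle FVB/N sons. Spink11 had a similar excess in vehicle C57BL/6J sons, at 2.08, and Spink8 ranged from 1.35 to 2.23 over the conditions. How the single libraries contributed was not tested, because the table holds their combined value.

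**Figure D2:**
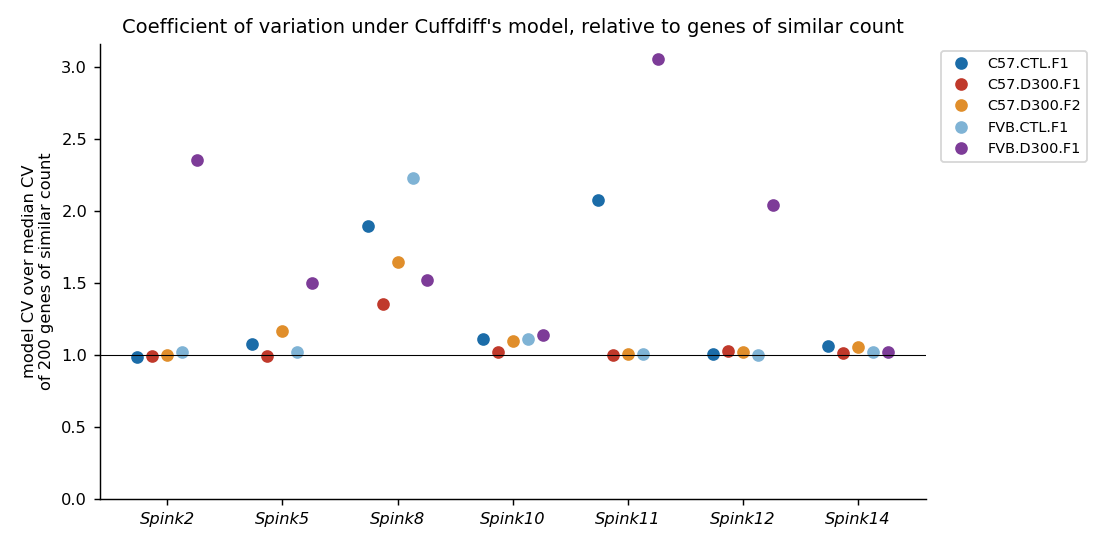
Model CV of each Spink gene divided by the median CV of 200 genes of similar count (vertical axis, no unit), by gene (horizontal axis) and condition (colour). The FVB.D300.F1 points of Spink2, Spink11 and Spink12 lie at 2.35, 3.06 and 2.04, while Spink14 stays near the line at 1 in all conditions.

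Epididymal transcripts were higher in the same condition. Of 17 epididymal markers, 6 of which the study had named from these samples, 16 had a valid estimate in both FVB/N conditions with log2 ratios from 0.53 to 9.36 and a median of 7.04. Of these, 13 reached 2 log2 units, beside 0.662% of all genes, but 9 of the 13 had under 10 counts in vehicle sons, so that they entered only through the condition where they are high, and 4 of the 13 had differences within the model SD. Crisp1 had valid estimates only in vehicle C57BL/6J sons, at 108274 counts (model SD 247685), and in exposed FVB/N sons, at 219328 (model SD 753601). Among the 16 markers with a valid estimate in every condition, Adam7 carried most of the counts. Its count was 23918 in vehicle C57BL/6J sons, 28056 in exposed C57BL/6J sons and 30429 in C57BL/6J grandsons. In FVB/N it was 37310 in vehicle sons and 53922 in exposed sons. The 15 other markers with a valid estimate in all conditions summed to 445, 427, 518, 1146 and 43369 counts in the same order. Of 5 blood markers with a value, 4 had enough counts in the FVB/N conditions, and the median log2 ratio of the 5 was 0.55. The globin transcripts Hba-a2 and Hbb-bs were counted as higher, beside 0.662% of all genes. They went from 411 to 2213 and from 453 to 2276 counts. The leukocyte transcripts Ptprc and Lyz2 went from 116 to 132 and from 654 to 956 counts and were not counted as changed. The part of these transcripts in the Spink2, Spink11 and Spink12 levels was not tested.

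Spink2, labelled a testicular gene, was set beside the germ cell transcripts. None of the 16 germ cell markers with enough counts was counted as changed between the FVB/N conditions, and the median log2 ratio of the 19 markers was 0.35, with 17 positive. Their summed count was 100425 in vehicle C57BL/6J sons, 85258 in exposed C57BL/6J sons, 34609 in C57BL/6J grandsons, 8130 in vehicle FVB/N sons and 9826 in exposed FVB/N sons. Spink2 and this sum were both lowest in vehicle FVB/N sons, and in exposed FVB/N sons Spink2 was at its highest while the sum was the second lowest. The part of germ cell RNA in the Spink2 level was not tested.

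**Figure D3:**
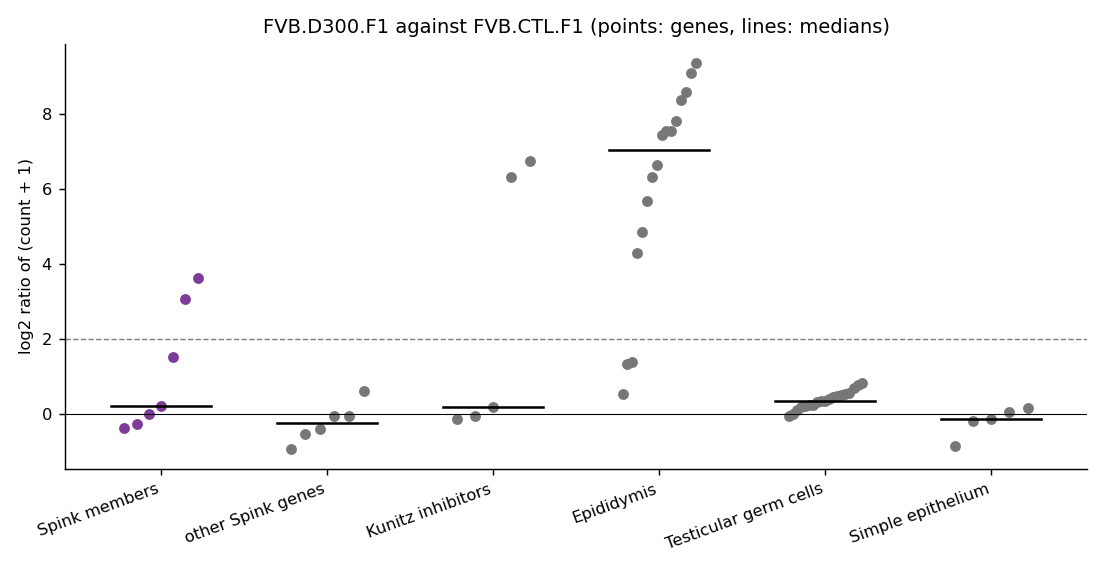
Log2 ratio of (count + 1) of FVB.D300.F1 over FVB.CTL.F1 (vertical axis) for each gene of 6 lists (horizontal axis), with a line at each list's median and a dashed line at 2. The median lies at 7.04 for the epididymal list, 0.35 for the germ cell list and 0.20 for the 7 Spink genes, of which Spink2 and Spink11 lie above 2.

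In C57BL/6J, 6 of the 7 members lay within their model SD between exposed and vehicle sons, and Spink11 was lower in the exposed ones. The share of all genes within the model SD is not given here, so that this count has no background. No member reached 2 log2 units in exposed C57BL/6J sons against vehicle C57BL/6J sons, where 0.0357% of 16825 genes were higher and 0.256% lower. The median log2 ratio of the members was 0.01, beside -0.01 over all genes. Spink11 was 3.91-fold lower after exposure (log2 ratio -1.96), just under the limit, and the difference of 399 counts exceeded its model SD of 268. Spink2 had a log2 ratio of 0.35, with 16.7 counts of difference within a model SD of 27.6. Both conditions come from the reused libraries.

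The summed seminal vesicle markers moved in the same C57BL/6J comparison. All 9 of these markers were counted as lower in exposed C57BL/6J sons, beside 0.256% of all genes. The study had named 8 of them from these samples. Their median log2 ratio was -10.41, and their summed count was 240702 in vehicle C57BL/6J sons against 696 in exposed ones. Of the 9, 5 had under 10 counts in exposed sons, so that they entered only through the condition where they are high. Of the 9 differences, 7 were within the model SD, as for Svs4, with 63518 counts and a model SD of 471701 in vehicle sons. The part of this material in the Spink11 level was not tested.

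In the F2 generation, 6 of the 7 members lay within the model SD of both C57BL/6J F1 conditions, and Spink11 lay beyond it in both comparisons. These counts too have no share of all genes beside them. Against vehicle C57BL/6J sons no member was counted as changed, the background being 0.584% of 17114 genes higher and 3.61% lower, and the members' median log2 ratio was -0.10. Against exposed C57BL/6J sons none was counted as changed either, with 0.333% of 17133 genes higher and 3.3% lower and a median of -0.11. Spink11 in C57BL/6J grandsons, at 256 counts, lay between the 2 F1 conditions. It was 2.09-fold below vehicle C57BL/6J sons, 280 counts against a model SD of 272, and 1.87-fold above exposed C57BL/6J sons, 119 counts against a model SD of 70.1. Against vehicle sons the 9 seminal vesicle markers were all counted as lower, summing to 240702 in vehicle sons and 1264 in grandsons, with 7 of the 9 differences within the model SD. Of the 9, 2 had under 10 counts in grandsons and entered only through vehicle sons. Liver transcripts were lower in the grandsons, the 6 markers, 5 of them named by the study from these samples, summing to 164144 counts in the vehicle and 148791 in the exposed C57BL/6J sons and to 3954 in the grandsons. Of the 6 liver differences, 3 were within the model SD against vehicle sons and 1 against exposed sons. The germ cell sum was lower in the grandsons too, and the part of these transcripts in the Spink11 level was not tested.

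Between the vehicle conditions of the strains no member passed 2 log2 units, while 1.44% of 17086 genes were higher in vehicle FVB/N sons and 8.88% lower. The members' median log2 ratio was 0.00. Spink14 (log2 ratio 1.07) and Spink12 (0.86) were higher in vehicle FVB/N sons and Spink2 (-0.98) was lower, each beyond its model SD. Against the C57BL/6J grandsons, which are of the same library set, the log2 ratios were 0.97 for Spink14, 0.96 for Spink12 and -1.01 for Spink2, again beyond the model SD. Of the 19 germ cell markers, 18 were counted as lower in vehicle FVB/N sons, with a median log2 ratio of -3.0, and Spink2 had the same direction as all 19. Of the 18, 2 had under 10 counts in vehicle FVB/N sons. In the same comparison the 5 simple epithelium markers were all positive, with a median log2 ratio of 1.02 and 0 counted as changed. The 9 seminal vesicle markers were all counted as lower, with a median of -9.86, as were the 6 liver markers, with a median of -7.45. Of the 9 seminal vesicle markers, 5 had under 10 counts in vehicle FVB/N sons and entered only through vehicle C57BL/6J sons. Differences within the model SD were 7 of these 9 and 3 of the 6 liver ones. The part of these tissues in the Spink14, Spink12 and Spink2 levels was not tested.

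The strain-by-exposure difference, the log2 ratio of DEHP over vehicle in FVB/N minus that in C57BL/6J, was 5.03 for Spink11, 3.27 for Spink2 and 1.60 for Spink12. Spink11 and Spink2 exceeded 2 log2 units and no member lay below -2, against 0.997% of 17556 genes above and 0.228% below. The exposed sons differed by 23.7-fold in Spink11, at 137 counts in exposed C57BL/6J sons and 3244 in exposed FVB/N sons, a difference of 3107 counts against a model SD of 3104. The other 4 members had differences between -0.49 for Spink14 and 0.19 for Spink5.

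**Figure D4:**
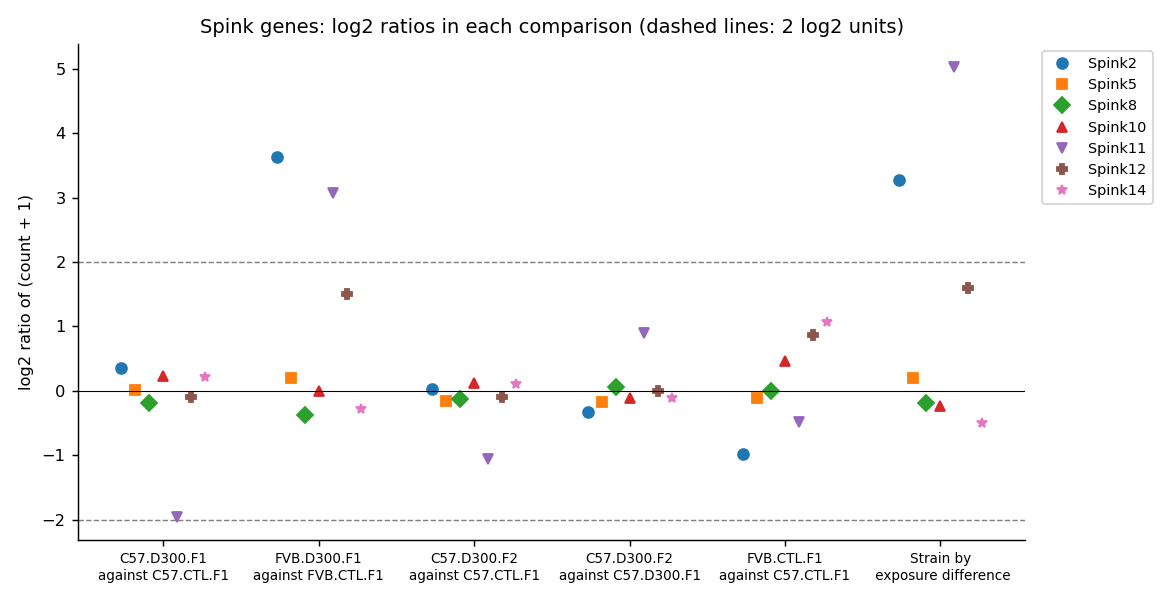
Log2 ratio of (count + 1) (vertical axis) of each Spink gene in the 5 comparisons and the strain-by-exposure difference (horizontal axis), with dashed lines at 2 log2 units either way. Spink2 and Spink11 pass the upper line in FVB.D300.F1 against FVB.CTL.F1 and in the strain-by-exposure difference, and Spink11 sits at -1.96 between the C57BL/6J sons.

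Among the 6 other Spink genes of the table, Spink1 and Spinkl carried the only calls in the 5 comparisons. Spink1, a secreted trypsin inhibitor that the study had named from these samples, had 14805 counts (model SD 29982) in vehicle C57BL/6J sons and at most 4.49 in any other condition. Spinkl had 7670 counts in vehicle C57BL/6J sons and from 291 to 535 elsewhere. Both were counted as lower in exposed C57BL/6J sons, in C57BL/6J grandsons and in vehicle FVB/N sons than in vehicle C57BL/6J sons. These differences were all within the model SD. Of the 6 genes, 4 had enough counts in each of these comparisons. Over all genes, 0.256%, 3.61% and 8.88% were counted as lower, in the same order. Spink1 passed the minimum count only through vehicle C57BL/6J sons. Spink4, Spink6, Spink7 and Spink13 stayed at or below 53.2 counts, and for Spink13 the model SD exceeded the count in every condition.

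Kunitz inhibitors block serine proteases through a different fold. Of Spint1 to Spint5, Spint4 and Spint5 were counted as higher in exposed FVB/N sons than in vehicle FVB/N sons, beside 0.662% of all genes, and both passed the minimum of 10 counts only through the exposed sons. Spint4, which the study had named from these samples, went from 9.46 to 1123 counts. Spint5 went from 2.45 counts, under the floor of 3, to 273 counts. Spint1, Spint2 and Spint3 had log2 ratios between -0.13 and 0.18.

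Of 12 genes listed by symbol as serine proteases of sperm or known targets of the family, 4 had enough counts in the FVB/N conditions. Of these, 0 were counted as changed, and the median log2 ratio of the 12 was -0.08. Acrbp, which encodes the acrosin-binding protein and is no protease, was taken off this list after its values were seen, and with it the list had 13 genes, 5 with enough counts, 0 counted as changed and a median of -0.05. Acr, which encodes acrosin, had 43.8 counts in vehicle C57BL/6J sons, 50.9 in exposed C57BL/6J sons, 39.7 in C57BL/6J grandsons, 6.31 in vehicle FVB/N sons and 14.1 in exposed FVB/N sons. Acr and its inhibitor Spink2 were both lowest in vehicle FVB/N sons and had positive log2 ratios in exposed over vehicle FVB/N sons, 1.05 for Acr and 3.62 for Spink2. Acr had under 10 counts in vehicle FVB/N sons. In exposed FVB/N sons it stayed below all C57BL/6J conditions, whereas Spink2 was at its highest there.

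Markers of stratified epithelium, the best known site of Spink5, were low. The 10 markers summed to between 314 and 606 counts per condition, against at least 6450 counts of Spink5 alone, and the 5 markers of simple epithelium summed to between 8314 and 17316. These counts were not scaled by transcript length, and the source of the Spink5 transcripts was not tested.

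The genes with the most similar profile to each member were found by the root mean square difference of log2 counts, centred on each gene's mean over the 5 conditions, among 11237 genes with at least 100 counts in 1 condition. For Spink2 they were Snord89 (0.31), Man1a (0.32), Adgrg2 (0.41), St8sia6 (0.41) and Ace (0.51). For Spink11 they were Teddm1b (0.66), Defb48 (0.67), Ros1 (0.67), Ly6g5b (0.70) and Spag11a (0.73). For Spink12 they were Qsox2 (0.17), Mfge8 (0.19), Slco4c1 (0.24), Kcnh3 (0.26) and Prkg1 (0.27).

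No gene came within 0.1 log2 units of Spink2, Spink11 or Spink12 on this measure. Spink14 had 13 genes that close, among them Bex4 (0.06). The nearly level members had many: 319 for Spink5, led by Zfp329, 206 for Spink8, led by Stat3, and 343 for Spink10, led by Fibp.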

How the data were processed

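Sperm RNA was depleted of ribosomal RNA, fragmented and made into small RNA libraries, and reads of at least 18 bases were aligned by the authors to mm10 with TopHat, as the labels and the study's methods state. CASAVA 1.8.2 is listed in the submitters' processing notes. The values deposited by the authors are Cuffdiff estimated counts per gene and condition, a signal scaled between conditions by Cuffdiff, together with their model variance. Cuffdiff's version, options and annotation release are not given in the sources used here. Estimates without status OK (71 genes in any condition) were left out.

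Ratios were log2 of (count + 1). A gene was counted as changed at 2 log2 units with at least 10 counts in 1 compared condition, and 3 counts was the floor for folds. No p-value was computed, because each condition has 1 value. Arithmetic was tested on simulated data. Exon lengths and sequences came from GENCODE M21 (GRCm38), matched by symbol. Python 3.11.15, pandas 2.3.3 and numpy 2.4.6 were used. The 7 members were named with their values in all conditions, and for each member the 5 genes of most similar profile, not all of which are reported here. The members and lists were chosen with earlier results of these data known. Alternatives were pseudocounts of 0.1 and 10, scaling to equal totals or by median of ratios, a minimum of 100 counts or none, 1 log2 unit, and a difference beyond the model SD.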

Additional observations from a re-analysis of the deposited data

Results flagged for a closer look

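Spink11 moved in opposite directions under DEHP in the 2 strains. It went from 537 to 137 counts in C57BL/6J and from 385 to 3244 counts in FVB/N, which gave a strain-by-exposure difference of 5.03 on the log2 scale. With 1 combined value per condition this difference was not tested. The FVB/N difference was within its model SD and the C57BL/6J difference was beyond it.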

How the results depend on the processing

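No paired analysis was possible because the table holds 1 combined value per condition, and for the same reason no library could be left out. With a threshold of 1 log2 unit, the number of members counted as changed went from 0 to 1 in exposed C57BL/6J sons against vehicle C57BL/6J sons (Spink11, lower), from 0 to 1 in C57BL/6J grandsons against vehicle C57BL/6J sons (Spink11, lower) and from 0 to 1 in vehicle FVB/N sons against vehicle C57BL/6J sons (Spink14, higher). Where the difference also had to exceed the model SD, the number in exposed FVB/N sons against vehicle FVB/N sons went from 2 to 1, leaving Spink2. The other 68 counts and medians under the alternatives stayed within the limits of 1.5 times for counts and 0.5 log2 units for medians. Among them, 2 counts went from 2 to 3 at 1 log2 unit, exactly at the limit, with Spink12 added as higher. These were exposed against vehicle FVB/N sons and the strain-by-exposure difference. Dropping the minimum count could not change a call, because every member had at least 10 counts in every condition. Over all alternatives the log2 ratio in FVB/N ranged from 3.29 to 3.66 for Spink2 and from 2.94 to 3.10 for Spink11. Scaling to equal totals moved the median of all genes by up to 0.31 log2 units in the 5 comparisons, and members near 0, such as Spink5, Spink8 and Spink10, changed sign under it. A shift of that size is too small to pass the limit of 0.5 log2 units. The members' median could still change sign, as from -0.10 to 0.21 in C57BL/6J grandsons against vehicle C57BL/6J sons. Precision was limited by the low counts of Spink2 and Spink12 and by the wide model SD of Spink8 and Spink11.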
